A study of Mus musculus with 10 samples.

Results

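The genes described here encode 4 enzymes of glycolysis and lactate formation and 2 carriers that move lactate through the plasma membrane. They were chosen by name (Gpi1, Aldoa, Pkm, Ldha, Slc16a1 and Slc16a3), and all 6 were found among the 10141 genes of the deposited table. RNA sequencing had compared leukaemia cells with myeloid cells from bone marrow of mice, with 5 libraries in each group. Cells carrying the MLL-AF9 fusion and a GFP reporter had been given to CD45.1 recipients by the tail vein, and marrow was taken once GFP+ cells made up 2% of blood cells. The leukaemia group is the sorted GFP+ cells, and the myeloid group is the GFP-CD11b+ cells of the marrow micro-environment. All 10 libraries carry the genotype label MLL-AF9/GFP and a leukaemia cell type label, so the groups were read from the sample titles. The design text gives a magnetic selection of CD45.2-CD11b+ cells for the myeloid group, where the treatment text gives flow cytometry. The labels name no age, sex or separate mouse for a library, so p-values measure only the spread between these libraries. No untransplanted marrow and no normal immature cells were analysed here, and leukaemia and stage of maturation cannot be told apart.

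Glycolysis splits glucose into pyruvate in the cytosol. Gpi1 encodes the isomerase that turns glucose phosphate into fructose phosphate, Aldoa an aldolase that cleaves the sugar into triose phosphates, and Pkm the pyruvate kinase of the last step, whose alternative exons give the PKM1 and PKM2 enzymes. Ldha encodes the lactate dehydrogenase subunit that favours making lactate from pyruvate and so restores NAD+ for glycolysis. Lactate crosses the membrane with a proton through monocarboxylate transporters. MCT1, from Slc16a1, is widely expressed, has a high affinity for lactate and carries it in either direction, whereas MCT4, from Slc16a3, is the carrier of strongly glycolytic cells that export lactate. Mature neutrophils are known to depend largely on glycolysis.

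The leukaemia programme, neutrophil and monocyte markers went with the titles, and not all other lists did. The leukaemia programme genes Hoxa9, Hoxa10, Meis1 and Cd34 summed to between 13946 and 18439 normalised reads (reads divided by the authors' size factor) in leukaemia libraries and to between 288 and 625 in myeloid ones. The sum of 10 neutrophil markers ran from 67019 to 71867 and from 2809847 to 4461832. Monocyte markers with an entry, 4 of 6, summed to between 24369 and 40993 in leukaemia libraries and between 52911 and 98710 in myeloid ones. Macrophage markers with an entry, 3 of 7, were higher in leukaemia, at 3665 to 5229 against 1024 to 3216. So were T and NK cell markers, 3 of 4, at 2870 to 5866 against 973 to 1734. The erythroid markers with an entry, 3 of 8, summed to at most 336 in any library. The table held between 24099551 and 32247803 reads per library, all recovered from the deposited values. Added over all genes, normalised reads came to 22456393 ± 214530 per leukaemia library and 35023404 ± 2549204 per myeloid library (SD, n = 5 each). Any difference of a member that is near this gap therefore depends on how libraries are scaled. The table also holds genes that differ: its highest unadjusted limma p was 0.243, and 99.8% of the 8079 genes above the filter passed an adjusted p of 0.05. A call of a member by itself is thus no result about that member.

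Slc16a1 and Slc16a3 moved in opposite directions, and their ratio within a library differed most among the 17 ratios computed. Slc16a1 had 1138, 1167, 1441, 995 and 1111 normalised reads in leukaemia replicates 1 to 5. In myeloid replicates 1 to 5 it had 218, 366, 315, 319 and 261. Every leukaemia library was above every myeloid library, and leukaemia replicate 3 was the highest. Leukaemia had a mean of 1171 ± 165 normalised reads and myeloid cells 296 ± 57.4, a 3.96-fold higher level (SD, n = 5 each). In limma the log2 difference of deposited values was 1.15 (SE 0.0789, adjusted p = 1.43e-08). The deposited scale compresses low values, and voom on the recovered reads, with the authors' size factors, gave 2.00 for the same comparison.

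Slc16a3 had 2221, 2659, 2242, 2867 and 2610 normalised reads in leukaemia replicates 1 to 5. In myeloid replicates 1 to 5 it had 10051, 16250, 9858, 13863 and 10797. The groups were far apart, and myeloid replicates 2 and 4 were the highest libraries. Leukaemia had a mean of 2520 ± 280 normalised reads and myeloid cells 12164 ± 2794, so that leukaemia was 4.83-fold lower. The limma log2 difference was -2.03 (SE 0.127, adjusted p = 5.98e-09). Among the 8079 tested genes, 4.86% had a lower log2 difference than Slc16a3, and 93.4% had a lower one than Slc16a1. Both transporter genes kept their direction and passed under each scaling tried, with log2 values from 1.10 to 2.63 for Slc16a1 and from -2.25 to -1.55 for Slc16a3.

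**Figure D1:**
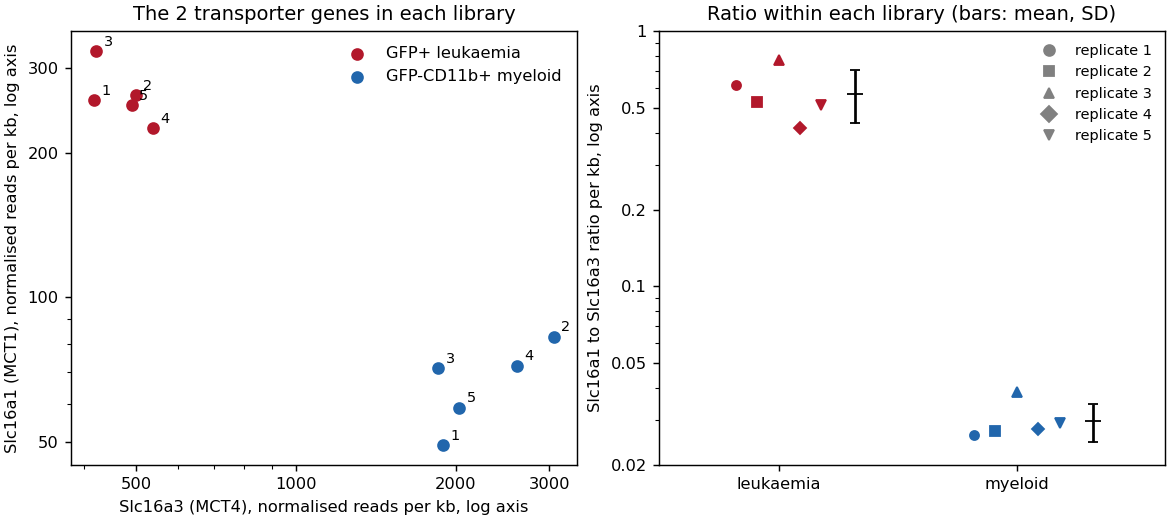
Left, normalised reads per kilobase of Slc16a1 (vertical log axis) against Slc16a3 (horizontal log axis), 1 point per library with its replicate number. Right, the ratio of both genes per kilobase in each library (log axis), with mean and SD bars over 5 libraries. Leukaemia libraries lie between 0.417 and 0.772 and myeloid libraries between 0.0261 and 0.0384.

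A ratio of 2 genes within a library does not depend on library scaling. The number of Slc16a1 reads per Slc16a3 read was 0.512, 0.439, 0.643, 0.347 and 0.426 in leukaemia replicates 1 to 5. In myeloid replicates 1 to 5 it was 0.0217, 0.0225, 0.032, 0.023 and 0.0242. The mean ratio was 0.473 ± 0.111 in leukaemia and 0.0247 ± 0.00417 in myeloid libraries, 19-fold apart as geometric means (log2 difference 4.25). An exact two-sided permutation test over 252 assignments of the libraries gave p = 0.00794, the smallest it can give with 5 against 5, and an adjusted p = 0.0104 over 17 ratios. Without myeloid replicates 2 and 4 the ratio was 18.1-fold apart, with an exact permutation p = 0.0179 over 56 assignments. The plot of the transporter pair shows that the groups did not overlap on either gene.

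Per kilobase of annotated exon, Slc16a3 was above Slc16a1 in all 10 libraries. In leukaemia the levels were 474 ± 52.7 and 264 ± 37.2 normalised reads per kilobase. In myeloid cells they were 2287 ± 525 and 66.9 ± 13. Slc16a3 made up 64.1% ± 5.28 of the sum of both in leukaemia and 97.1% ± 0.469 in myeloid libraries (SD, n = 5 each). Under the authors' size factors the sum itself was 3.19-fold lower in leukaemia. With the longest coding transcript as the length, the per-kilobase ratio of Slc16a1 to Slc16a3 was 0.464 ± 0.109 and 0.0242 ± 0.00408 in place of 0.569 ± 0.134 and 0.0296 ± 0.00501, and the isoforms used in these cells were not known.

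Promoter letters are shown for the transporter pair, on which the main difference rests, and for Ldha, the member with the most matches to the motifs searched. RefSeq promoters (GRCm38.p6) matched 6 of 6 members by symbol, with 10 start sites in all. Each sequence is the 250 bases before the start of transcription, 5′ to 3′ on the gene's strand. Capitals mark ACGTG or GCGTG on either strand, the core letters that hypoxia-inducible factors bind. CACGTG, the E-box bound by Myc and related factors, is a palindrome that contains ACGTG on both strands.
Slc16a1, chr3:104638414-104638663, forward strand: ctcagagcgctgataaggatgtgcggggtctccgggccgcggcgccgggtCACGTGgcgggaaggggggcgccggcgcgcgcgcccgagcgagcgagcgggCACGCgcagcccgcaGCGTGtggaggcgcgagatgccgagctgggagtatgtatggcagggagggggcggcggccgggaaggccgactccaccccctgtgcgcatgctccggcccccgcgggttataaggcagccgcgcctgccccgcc
Slc16a3, chr11:120948817-120949066, forward strand: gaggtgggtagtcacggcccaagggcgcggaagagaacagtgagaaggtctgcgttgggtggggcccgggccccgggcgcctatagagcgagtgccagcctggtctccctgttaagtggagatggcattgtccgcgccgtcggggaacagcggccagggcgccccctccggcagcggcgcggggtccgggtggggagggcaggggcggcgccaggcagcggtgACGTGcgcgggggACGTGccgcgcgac
Ldha, chr7:46845554-46845803, forward strand: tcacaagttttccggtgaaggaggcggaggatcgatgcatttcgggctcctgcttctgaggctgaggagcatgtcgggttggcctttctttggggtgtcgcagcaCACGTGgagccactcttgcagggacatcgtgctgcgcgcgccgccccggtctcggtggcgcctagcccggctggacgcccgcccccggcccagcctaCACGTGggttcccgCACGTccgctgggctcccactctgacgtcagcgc
The Slc16a1 promoter held 1 CACGTG, 200 bases before the start, and GCGTG at 149 (on the other strand) and 134 bases. The Slc16a3 promoter held ACGTG at 27 and 14 bases before the start and no CACGTG in this window. Ldha held 2 CACGTG, at 145 and 48 bases, and a further ACGTG on the other strand at 34 bases. Among 32851 RefSeq promoters of the same length 16.6% held ACGTG, 28.2% GCGTG, 38.6% either of them and 6.02% CACGTG. By start site, as in this background, 7 of the members' 10 windows held ACGTG or GCGTG and 2 of 10 held CACGTG. Among the members, 5 of 6 held ACGTG or GCGTG before at least 1 start site, the exception being Gpi1. A gene with several start sites has more windows to hold a match, and the windows of 2 Aldoa start sites overlap and share 1 site. These matches describe letters only. Slc16a1 and Slc16a3 both held ACGTG, and whether these sites have a part in the difference between the groups was not tested.

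The other transporters and the shared partner protein add to the picture of lactate carriage. Bsg encodes basigin, the membrane chaperone that MCT1 and MCT4 need to reach the cell surface. Its mean was 5947 ± 483 normalised reads among leukaemia libraries and 3633 ± 450 among myeloid ones, a 1.64-fold higher level (limma adjusted p = 5.73e-06), and it stayed higher under each scaling. Slc16a3 reads per Bsg read were 0.423 ± 0.0206 in leukaemia and 3.32 ± 0.357 in myeloid libraries, a 7.81-fold difference (exact permutation test, adjusted p = 0.0104). Slc16a1 reads per Bsg read were 0.199 ± 0.0388 and 0.0814 ± 0.012, a 2.43-fold difference in the other direction (exact permutation test, adjusted p = 0.0104). The chaperone gene embigin (Emb) and Ldhb, the other main lactate dehydrogenase subunit, had no entry in the table and were not analysed here.

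Of 16 fixed genes for other carriers and chaperones, 5 had an entry and 4 passed the filter on low values, 3 higher and 1 lower in leukaemia. The background for the test was 49.1% of all tested genes higher and 50.7% lower. Besides Bsg, the aromatic amino acid transporter gene Slc16a10 was 1.95-fold higher (3054 ± 176 against 1570 ± 415 normalised reads), and Slc16a13 was 2.85-fold higher at a low level (242 ± 45.5 against 84.9 ± 23.4). Slc16a13, 1 of the 3 called higher, passed the filter only through leukaemia, so its call is no support for the count. Slc16a6 passed as lower under the authors' size factors (2944 ± 255 against 4424 ± 542), and by table totals it had a log2 fold of 0.06 with no call (voom adjusted p = 0.575). Slc16a14 lay below the filter, with 9 reads in all in leukaemia and 529 in myeloid libraries. Ldhc, known as the lactate dehydrogenase of sperm cells, lay below it as well, with 8 and 372 reads.

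The 4 enzyme genes were abundant in both groups, and the direction of their difference depended on how libraries were scaled. Under the authors' size factors each was lower in leukaemia, while none passed as lower when libraries were scaled by their totals, and Gpi1 and Pkm passed as higher after quantile normalisation. Per kilobase of exon in leukaemia, Pkm ranked 86, Aldoa 102, Gpi1 165 and Ldha 219 among 10133 genes with a length. In myeloid cells they ranked 68, 111, 172 and 235. The levels per kilobase were in the order Pkm, Aldoa, Gpi1 and Ldha in both groups, from 9766 ± 568 for Pkm to 4137 ± 359 for Ldha in leukaemia and from 16161 ± 2893 to 5985 ± 1063 in myeloid cells. Taken as mean ± SD, neighbours in this order were apart in leukaemia, whereas Gpi1 (7766 ± 1373) and Ldha overlapped in myeloid cells. Within each myeloid library Gpi1 was nevertheless above Ldha, with per-kilobase ratios from 1.136 to 1.495. With the longest coding transcript as the length the order was the same, with higher values. The ranks compare the table's genes only.

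Gpi1 had 32633, 35384, 33298, 41206 and 38720 normalised reads in leukaemia replicates 1 to 5. The myeloid replicates had 44592, 61340, 42096, 57971 and 44526. The highest leukaemia library lay just under the lowest myeloid one, and myeloid replicates 2 and 4 stood above the other myeloid libraries. The mean was 1.38-fold lower in leukaemia (36248 ± 3647 against 50105 ± 8857), with a limma log2 difference of -0.45 (SE 0.119, adjusted p = 0.00283). In RPM, which divide a library's reads by its table total, groups overlapped at 1614 ± 153 and 1423 ± 150.

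Aldoa, the next member along the pathway, had 20890, 24585, 22066, 26788 and 24970 normalised reads in leukaemia. In myeloid libraries it had 27558, 39546, 29673, 37353 and 30807. The separation was again narrow, with the same pair of myeloid libraries on top. The mean was 1.38-fold lower in leukaemia (23860 ± 2365 against 32987 ± 5179), and the limma log2 difference was -0.45 (SE 0.11, adjusted p = 0.00162). In RPM the values were 1062 ± 98.1 and 937 ± 78.9, which overlapped.

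Leukaemia libraries held 45669, 52062, 46165, 50950 and 49364 normalised reads of Pkm, while the myeloid ones held 66181, 98912, 71215, 93500 and 74290. It was the enzyme gene with the widest gap between the groups. The mean was 1.65-fold lower in leukaemia (48842 ± 2842 against 80820 ± 14468), with a limma log2 difference of -0.70 (SE 0.116, adjusted p = 6.75e-05). In RPM it had 2174 ± 109 and 2294 ± 242, and the groups overlapped. Gene-level values do not separate the PKM1 and PKM2 exons.

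For Ldha the leukaemia values were 12015, 15198, 13168, 14189 and 13894 normalised reads, and the myeloid values 16095, 25576, 19016, 19893 and 18468. Myeloid replicate 2 alone stood well above the rest. The mean was 1.45-fold lower in leukaemia (13693 ± 1188 against 19809 ± 3517), with a limma log2 difference of -0.50 (SE 0.109, adjusted p = 0.000681). In RPM the values were 610 ± 49 and 563 ± 66.2, which overlapped.

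**Figure D2:**
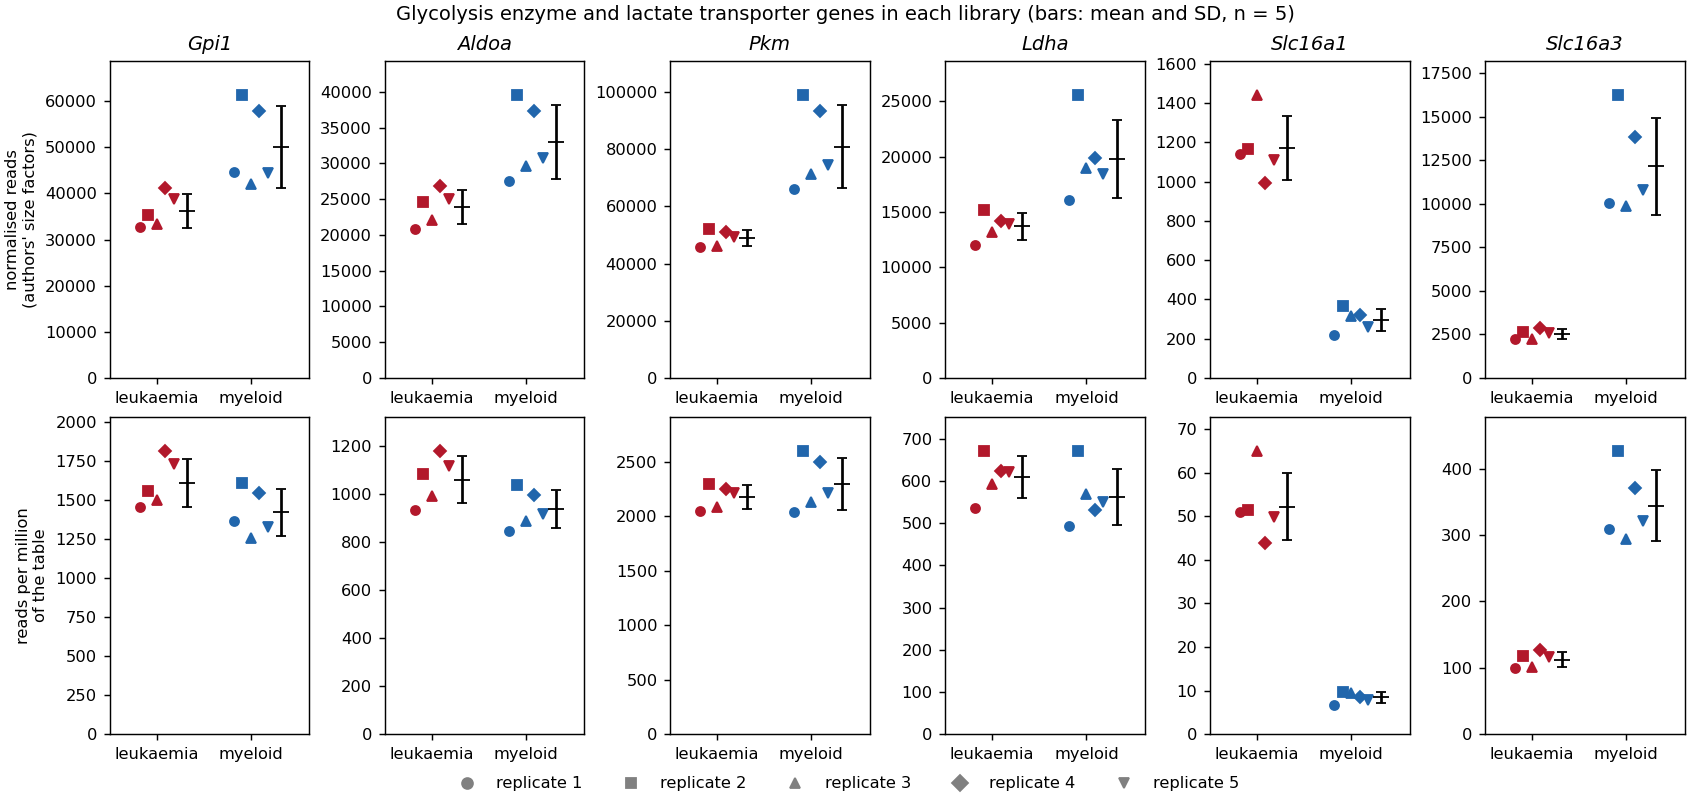
Values of the 6 genes in each library, leukaemia in red and myeloid in blue, with marker shapes for replicates and black bars for mean and SD (n = 5). The upper row gives normalised reads and the lower row RPM, each on an axis from 0. The groups are apart for all 6 genes in the upper row, and for Slc16a1 and Slc16a3 but not the 4 enzyme genes in the lower row.

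By normalised reads the groups did not overlap for 6 of 6 members, against 86.8% of all tested genes. By RPM they did not overlap for 2 of 6, against 77.5%, and those were the transporters. The scaling moved the median log2 difference of all tested genes from -0.16 with the authors' size factors to 0.09 after quantile normalisation. In voom it moved from -0.21 with those size factors to 0.22 scaled to the total without the 100 highest genes and to 0.43 scaled to the whole total. Scaled to the whole total, log2 folds were 0.18 for Gpi1, 0.18 for Aldoa, -0.07 for Pkm and 0.12 for Ldha, none of which passed, where 27.6% of tested genes passed as lower, 57.2% as higher and 84.8% in either direction. After quantile normalisation the log2 differences of Gpi1 (0.23, adjusted p = 0.0158) and Pkm (0.26, adjusted p = 0.00223) passed as higher in limma, where 47% of tested genes passed as higher, 41% as lower and 88% in all. Scaled by totals without the 100 highest genes, Pkm alone of the 4 passed (-0.28, adjusted p = 0.00831), where 51.2% of tested genes passed as higher, 34.2% as lower and 85.4% in all. In voom with the authors' size factors, 4 of 4 enzymes passed as lower, where 49% of tested genes passed as higher, 50.6% as lower and 99.6% in all. Set against the median over all tested genes, enzymes stood at -0.29 (Gpi1), -0.29 (Aldoa), -0.55 (Pkm) and -0.35 (Ldha) in limma on deposited values. In voom with the authors' size factors they were at -0.24, -0.25, -0.50 and -0.31. By table totals in voom they were at -0.25, -0.25, -0.50 and -0.31. A size factor shifts all genes of a library alike, so the voom values are no separate results. After quantile normalisation they were at 0.14, 0.06, 0.17 and -0.01. The plot of 5 scalings sets the log2 differences of the enzymes beside those of the transporters.

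**Figure D3:**
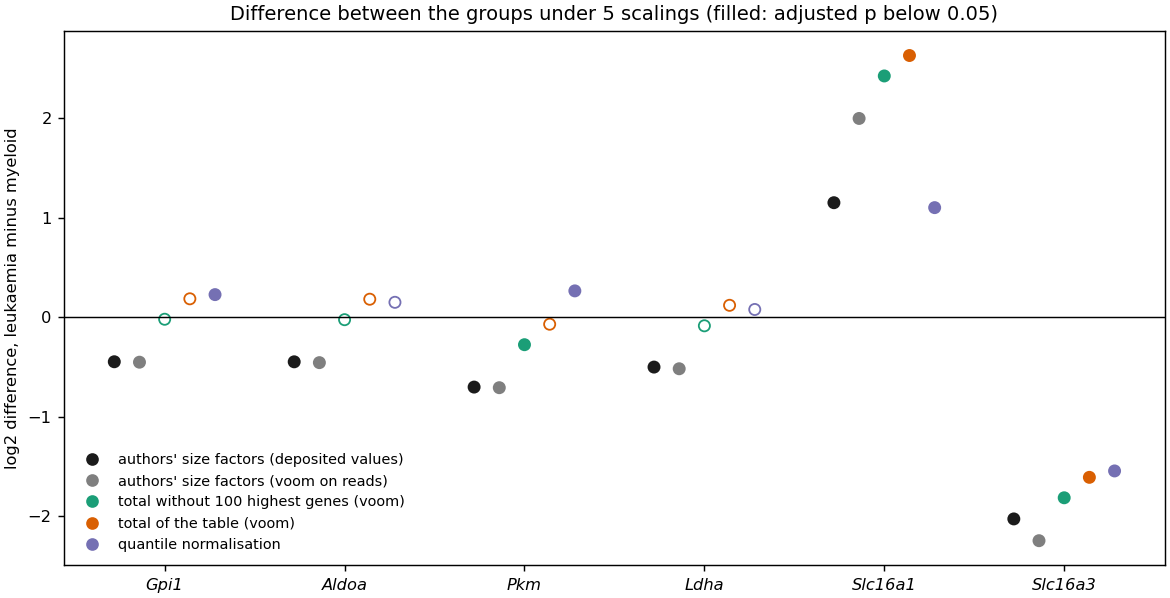
Log2 difference of each member, leukaemia minus myeloid, under 5 scalings (colours), filled where the adjusted p was below 0.05. The enzyme genes lie between -0.71 and 0.26 and cross 0, whereas Slc16a1 lies at 1.10 or above and Slc16a3 at -1.55 or below.

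Ratios of reads between the enzymes within a library do not change when a library is multiplied by a size factor. Gpi1 reads per Aldoa read were 1.52 ± 0.0492 in leukaemia and 1.52 ± 0.0828 in myeloid libraries, and missed the threshold by an exact permutation test (adjusted p = 0.921). Gpi1 to Ldha was 2.65 ± 0.227 and 2.54 ± 0.29 (exact permutation test, adjusted p = 0.523), and Aldoa to Ldha was 1.74 ± 0.105 and 1.67 ± 0.134 (exact permutation test, adjusted p = 0.396). By these ratios Pkm was lower in leukaemia relative to the others, a direction that turned after quantile normalisation, where Pkm had a log2 difference of 0.26 and Gpi1, Aldoa and Ldha had 0.23, 0.15 and 0.08. Aldoa to Pkm was 0.488 ± 0.0275 against 0.409 ± 0.00894, and Gpi1 to Pkm was 0.742 ± 0.0532 against 0.621 ± 0.0322 (exact permutation tests, adjusted p = 0.0104 each). Pkm to Ldha was 3.58 ± 0.14 against 4.09 ± 0.369 (exact permutation test, adjusted p = 0.0193), with overlapping groups. These differences between enzymes were at most 1.19-fold. A p that misses the threshold does not show that the ratios are equal.

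Against the enzymes, both transporters stood apart. Per kilobase of exon, Slc16a3 was at 0.115 ± 0.0077 of Ldha in leukaemia and at 0.381 ± 0.0411 in myeloid libraries, a 3.33-fold difference. Slc16a1 was at 0.0645 ± 0.0118 and 0.0112 ± 0.000978 of Ldha, 5.78-fold in the other direction. Aldoa reads per Slc16a3 read were 9.48 ± 0.233 in leukaemia and 2.75 ± 0.213 in myeloid libraries (exact permutation test, adjusted p = 0.0104). Of the 17 ratios, 14 passed and 13 had groups that did not overlap, among them each ratio of a transporter to an enzyme. These ratios reuse the same genes, so the count does not give separate results. Among single tested genes, 86.8% did not overlap by normalised reads and 77.5% by RPM. The share among ratios of other gene pairs was not computed.

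Among myeloid libraries, replicates 2 and 4 had the highest normalised reads of all 6 members. In RPM they remained the highest for Gpi1, Aldoa, Pkm and Slc16a3, and not for Ldha or Slc16a1. The neutrophil markers with an entry, 10 of 10, summed to 4461832 and 3730527 normalised reads in those libraries and to between 2809847 and 3068143 in the other three. The monocyte markers with an entry, 4 of 6, summed to 52911 and 58781 there and to between 88643 and 98710 in the others. The B cell markers, 4 of 4, summed to 441 and 410 there and to between 792 and 1750 in the others. Their part in the members' values was not tested. Without myeloid replicates 2 and 4 the limma log2 differences were -0.27 for Gpi1 (adjusted p = 0.0104), -0.30 for Aldoa (0.00623), -0.53 for Pkm (4.37e-05) and -0.37 for Ldha (0.00114). The enzymes were then lower in leukaemia by 1.21 times (Gpi1), 1.23 (Aldoa), 1.44 (Pkm) and 1.30 (Ldha). Slc16a1 was 4.42-fold higher and Slc16a3 4.06-fold lower. In bulk RNA, fewer cells of a type and less RNA per cell cannot be told apart.

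Other steps of the lower pathway did not all go with the members. Of 13 fixed genes 8 had an entry and 6 were tested. Under the authors' size factors 2 were higher and 4 lower in leukaemia, where 49.1% and 50.7% of all tested genes were. By table totals 2 were higher and 0 lower, where 57.2% and 27.6% of all tested genes were. By totals without the 100 highest genes 2 were higher and 3 lower, where 51.2% and 34.2% of all tested genes were. Quantile normalisation also gave 2 higher and 3 lower, where 47% and 41% of all tested genes were. Tpi1, the triose phosphate isomerase gene, was 1.73-fold higher (9681 ± 1148 against 5580 ± 876 normalised reads, limma adjusted p = 1.59e-05). Pgam1, a phosphoglycerate mutase gene, was 1.33-fold higher (16161 ± 1334 against 12189 ± 2365, limma adjusted p = 0.00428) with overlapping groups. Both were higher under each scaling. Pgk1, the phosphoglycerate kinase gene, was 1.78-fold lower (10332 ± 795 against 18427 ± 3330), and scaled to the total its log2 fold was -0.18 (voom adjusted p = 0.0501). It passed as lower by totals without the 100 highest genes (-0.39, voom adjusted p = 0.00108) and after quantile normalisation (-0.18, limma adjusted p = 0.0431). Eno1, the main enolase gene, was lower (23560 ± 1273 against 37797 ± 4218), with a log2 fold of -0.04 that did not pass when scaled to the total (voom adjusted p = 0.546). It passed as lower by totals without the 100 highest genes (-0.24, voom adjusted p = 0.00279) but not after quantile normalisation (-0.06, limma adjusted p = 0.293). Eno1b is a retrotransposed copy of Eno1, and its 1.55-fold lower value is uncertain because reads could be split between near-identical copies. The same holds for other glycolysis genes with processed pseudogenes, since the treatment of reads with several matches was not given in the sources used here.

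Eno3, the enolase of muscle, split the myeloid libraries. It had 1431, 242, 1026, 262 and 1054 normalised reads in myeloid replicates 1 to 5, and between 148 and 232 in leukaemia. Replicates 2 and 4, the highest myeloid libraries for the members, were the lowest for Eno3 and nearly reached the leukaemia values. The limma log2 difference was -0.92 (SE 0.254, adjusted p = 0.00361), and -1.42 without those libraries. The call was lost by table totals (log2 fold -1.09, voom adjusted p = 0.106) and by totals without the 100 highest genes (-1.31, voom adjusted p = 0.0534). Aldoc (126 ± 23.4 against 61.2 ± 21) and Pgam2 (52.8 ± 12.5 against 194 ± 27.4) lay below the filter and so outside the reported test.

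**Figure D4:**
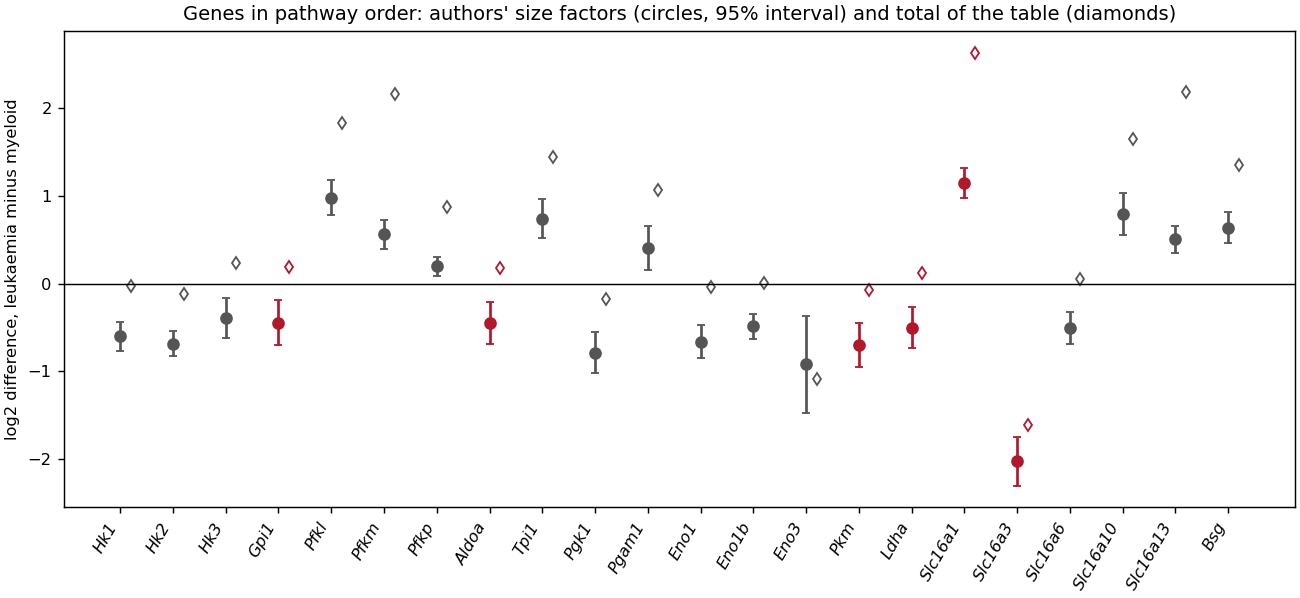
Log2 difference, leukaemia minus myeloid, of genes in pathway order, the 6 members in red. Circles with 95% intervals give the limma values on deposited data and diamonds the voom values scaled to the total of the table. Pfkl, Tpi1, Pgam1, Slc16a1 and Bsg are among the genes above 0 on both scales. Slc16a3 (-2.03 and -1.61) is below 0 on both. Pkm is too (-0.70 and -0.07), but its voom value did not pass.

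Across the whole fixed list of 92 further genes of glycolysis, its regulators and pyruvate handling, 59 had an entry and 53 were tested. With the authors' size factors 28 were higher, 24 lower and 1 did not pass, with a median log2 difference of 0.23 against -0.16 for all tested genes. By table totals, 34 were higher and 7 lower, with a median of 1.06 against 0.43. Shares among all tested genes were 49.1% higher and 50.7% lower with those size factors, and 57.2% and 27.6% by table totals. Of the 28, Slc16a13, Pcx, Fbp1 and Pfkm passed the filter only through leukaemia. A stricter filter on low values left 43 genes of the list, with 19 higher and 23 lower. Of the 5806 genes it left in all, 2415 were higher and 3384 lower. The median was then -0.30 for the list and -0.30 for all genes left, so the gap between medians depended on the filter. In upper glycolysis and its control, 6 of 11 tested genes were higher and 5 lower with the authors' size factors. Of the 6, Fbp1 and Pfkm passed the filter only through leukaemia. The stricter filter left 7 of the 11, with 2 higher and 5 lower. By table totals 7 of the 11 were higher and 1 lower, so the split depended on filter and scaling. Fbp1, a gluconeogenic phosphatase gene, was 7.48-fold higher, Tigar, a fructose bisphosphatase gene, was 3.73-fold higher and Pfkfb4, a maker of the activator of phosphofructokinase, was 11.9-fold lower under the authors' size factors. Hk2, a hexokinase gene, was 1.70-fold lower by the same values and did not pass when scaled to the total (log2 fold -0.12, adjusted p = 0.199).

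Pyruvate that is not made into lactate enters mitochondria. Of 11 tested genes for this step 8 were higher and 3 lower, with the same counts under the other scalings tried. Of all tested genes 49.1% were higher and 50.7% lower with the authors' size factors, and 57.2% and 27.6% by table totals. That stricter filter on low values left 7 of the 11, with 4 higher and 3 lower. It left 5806 genes in all, with 2415 higher and 3384 lower. Pdk1, a kinase that restrains pyruvate dehydrogenase, was 2.77-fold higher (1164 ± 82.4 against 420 ± 73 normalised reads), and Pcx, the pyruvate carboxylase gene, was 5.64-fold higher (310 ± 15.9 against 55 ± 25.7). Pcx, 1 of the 8, passed the filter only through leukaemia, where it was high. Mpc2, whose protein helps carry pyruvate into mitochondria, was 3.50-fold lower (601 ± 75.6 against 2103 ± 349), and Pdk3 was 2.11-fold lower. Shuttles that carry the reducing power of cytosolic NADH into mitochondria do the work that lactate formation does for glycolysis. Of the 6 tested shuttle genes 2 were higher and 4 lower, and scaled to the total 5 were higher and 0 lower. These counts are to be read against the same shares of all tested genes. Slc25a13, the aspartate and glutamate carrier citrin, was 2.68-fold higher and Mdh1, the cytosolic malate dehydrogenase gene, 1.46-fold higher. Gpd2, the mitochondrial glycerol phosphate dehydrogenase gene, passed as lower (2216 ± 132 against 3555 ± 578) but had a log2 fold of -0.03 without a call by table totals. Mdh2 was 1.37-fold lower and passed as higher in that scaling (log2 fold 0.20, adjusted p = 0.0447).

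Factors that decide between the alternative exons of Pkm were higher in leukaemia, 5 of 5 tested and under each scaling tried. Depending on the scaling, 47% to 57.2% of all tested genes were higher. Pkm itself was not higher except after quantile normalisation. Hnrnpa1 was 3.21-fold higher (29606 ± 2960 against 9229 ± 727 normalised reads) and Ptbp1 was 2.72-fold higher (19992 ± 544 against 7340 ± 586). Both are RNA-binding proteins that repress the PKM1 exon. The list was not sorted by the exon that a factor favours, so its count gives no direction of exon choice. Of the 7 regulators of transcription 1 was higher and 6 lower under the authors' size factors, where 49.1% of all tested genes were higher and 50.7% lower. By table totals 3 were higher and 2 lower, where 57.2% and 27.6% of all tested genes were. Myc was 9.12-fold higher (3992 ± 460 against 438 ± 117). Arnt, the partner of the hypoxia-inducible factors, was 1.82-fold lower (1850 ± 91.9 against 3363 ± 140), and Tfeb, a regulator of lysosomes, was 5.61-fold lower. Of 3 tested genes linked to lactate signalling, Ndrg3, whose protein binds lactate, was 1.54-fold higher. Ep300, an acetyltransferase gene, was 2.19-fold lower.

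The genes most like each member were those with the smallest root mean square difference of centred deposited values over the 10 libraries. For Gpi1 they included Aldoa (0.0575) and Hk3 (0.0633), and for Aldoa they were Dhdds (0.0511), Gpi1 (0.0575) and Hk3 (0.0582). Gpi1 and Aldoa were thus each among the 3 genes nearest to the other, and Hk3, a hexokinase gene of myeloid cells, was among the 3 nearest to both. For Pkm the nearest were Pgk1 (0.055), the gene of the other ATP-forming step of glycolysis, Map2k3 (0.059) and Rab27a (0.0633). For Ldha they were Id1 (0.0698), Rnaseh2c (0.074) and Cfl1 (0.0753). Slc16a1 was nearest to Ybx3 (0.0856), the amino acid transporter gene Slc7a1 (0.0867) and Hirip3 (0.0896). Slc16a3 was nearest to Nudt4 (0.0703), Cnn2 (0.0704) and Msrb1 (0.074), and Pkm, the enzyme member most like it, was only at position 1851.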

How the data were processed

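The authors deposited log2-scale values, normalised and variance-stabilised, of 10141 genes in 10 libraries. HISAT2 (2.0.4 and 2.2.1) and DESeq2 are named in the submitters' processing notes, and the labels' protocols name a NEBNext Ultra kit. No genome build, annotation or counter is given in the sources used here. The transform was inverted under its parametric form to give normalised reads, and a library's size factor was the smallest scale that made low values whole. Scored to 300 reads, 100% of values lay within 0.1 read of a whole number. High reads are rounded by the decimals of the file, and a read can be part of a counted pair.

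Groups were compared with limma 3.58.1 (R 4.3.3), fitted to deposited values with a trended prior variance, two-sided, at a Benjamini-Hochberg adjusted p of 0.05. The filter asked for a 10-library mean more than 1 unit over the file's minimum of 8.18, about 145 normalised reads. Adjusted p-values describe genes that the table already selected for a difference (Spearman rho of 0.98 between position and p, across genes). Folds are ratios of mean normalised reads, and per-kilobase values use the union of exons in GENCODE M21, which may not be the authors' annotation. Ratios were compared with exact permutation tests, adjusted over the 17 computed. voom values come from recovered reads. The model fits were tested on simulated data. No 2 libraries shared more than 0.0883% of values.

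The members, the gene lists and the rule for naming genes were chosen with earlier results of these data known. Named genes were the members, every gene with an entry in the lower glycolysis, lactate dehydrogenase and transporter lists, at most the 2 highest and 2 lowest passing genes of each other list, and the 3 nearest genes of each member, of which 1 is not reported here. Alternatives were other filters and scalings, voom, no trend, a replicate block and each library left out. Leaving out myeloid replicates 2 and 4 and the transcript length were chosen after seeing the data.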

Additional observations from a re-analysis of the deposited data

Results flagged for a closer look

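Over 112 groups of 5 values examined for the named genes and ratios, 2 held a value far from the other 4, where chance flags about 1 in 20. Myeloid replicate 3 had the highest log2 ratio of Slc16a1 to Slc16a3 among myeloid libraries, -4.97, against -5.53 to -5.37 in the others. Leukaemia replicate 4 had the highest deposited value of Eno1b among leukaemia libraries, 11.11, against 10.92 to 10.97 in the others, and Eno1b can share reads with Eno1.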

How the results depend on the processing

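With the authors' size factors 3965 of 8079 genes were higher and 4097 lower in leukaemia. A stricter filter on low values, which tests fewer genes and leaves out Slc16a1, gave 2415 higher, and scaling by table totals gave 2232 lower. By table totals the log2 values of Gpi1 (0.184), Aldoa (0.18), Ldha (0.118), Eno1b (0.0113), Slc16a6 (0.0566) and Mdh2 (0.199) turned above 0, and Pkm (-0.0717) lost its call. After quantile normalisation Gpi1 (0.226), Aldoa (0.149), Pkm (0.264), Ldha (0.0764) and Mdh2 (0.174) turned above 0. Scaled to the total without the 100 highest genes Gpi1 (-0.0218), Aldoa (-0.0261) and Ldha (-0.0876) lost their calls. The cause was not tested.

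In the fixed list 24 genes were lower in the reported comparison, 7 by table totals, 13 by totals without the 100 highest genes and 12 by quantiles. Among all tested genes 50.7%, 27.6%, 34.2% and 41% were lower, in that order. Leaving out 1 library at a time, each member kept its direction and call: log2 differences ran from -0.51 to -0.37 for Gpi1, -0.51 to -0.38 for Aldoa, -0.77 to -0.63 for Pkm, -0.57 to -0.41 for Ldha, 1.09 to 1.19 for Slc16a1 and -2.10 to -1.92 for Slc16a3. In these fits 3881 to 3921 of 8079 tested genes were higher and 3996 to 4038 lower, so a kept call is no result about a member. All of them used the authors' size factors. The log2 ratio difference of Slc16a1 to Slc16a3 ran from 4.13 to 4.35, and was 3.18 from deposited values. The difference of Gpi1 to Aldoa, at 0.0038, ran from -0.01996 to 0.0275 and so has no stable sign.

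Same-numbered libraries correlated in their deviations from the group means at 0.13, 0.23, 0.32, 0.29 and -0.02 over genes. The labels leave unstated whether a number marks 1 mouse, so the libraries were not treated as pairs. These correlations do not settle whether they are pairs. A replicate block changed no call of a member in limma and gave 3940 genes higher and 4078 lower. In an exact sign-flip test of the 5 same-numbered pairs the Slc16a1 to Slc16a3 difference of 4.25 had an adjusted p = 0.0708, and a p of 0.0625 is the smallest this pairing allows. By this test 14 ratios that had passed no longer did. With no filter on low values, Ldhc and Slc16a14 both passed as lower, and of Aldoc and Pgam2 1 passed as higher and 1 as lower.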
